A study of Mus musculus with 2 samples.

Results

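The 7 genes Il17a, Il17f, Il23r, Trdc, Tcrg-C1, Zbtb16 and Sox5 were followed through the cell groups of 1 multiplexed pool of mouse spleen cells, as 7 of the 32285 genes in the count matrix. They were chosen by name, as genes of interleukin-17 production and of innate-like T cells, with earlier results of these data known. The spleens came from C57BL/6 mice, 8 weeks old and of WT genotype. All mice were sensitized to ovalbumin (OVA) on days 0 and 10, so every cell came from a sensitized animal. The 3 groups of mice were left untreated, received a standard desensitization (OVA in PBS on days 20, 22 and 24 and OVA in Alum on days 40 and 60), or received OVA linked to the DCIR-2-Fusion protein on days 20, 22 and 24. On day 80, after an OVA challenge described in the study's methods, the spleen cells of each group were stimulated for 3 h with PMA and ionomycin, which drive cytokine transcription without antigen. They were then sorted for CD45 into CD11b+ and CD11b- fractions that were mixed in equal parts, frozen and labelled with hashtag antibodies. The gene library held 16829 distinct barcodes with 502 to 98727 unique molecular identifiers (UMIs, each marking 1 captured transcript molecule) per barcode, with a median of 6334. The pool carried 4 hashtags for 3 conditions and no label pairs them, so the conditions were not compared. The number of mice behind a hashtag is not given in the sources used here.

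IL-17A and IL-17F are secreted cytokines that act on epithelial and stromal cells and recruit neutrophils. IL-23, acting through the receptor subunit encoded by Il23r, sustains their production by T cells. The spleen holds several kinds of T cell known to make IL-17: conventional CD4+ Th17 cells, gamma-delta T cells, whose receptor uses the constant regions encoded by Trdc and the Tcrg-C genes, and innate-like T cells such as invariant NKT cells, which depend on the transcription factor PLZF encoded by Zbtb16. Sox5 encodes an HMG-box transcription factor that has been placed with c-Maf in the development of Th17 cells.

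In the GRCm38 build, Il17a (ENSMUSG00000025929, chr1:20730905-20734496, plus strand) and Il17f (ENSMUSG00000041872, chr1:20777146-20790617, minus strand) are neighbours with 42.649 kb between their ends. Il23r (ENSMUSG00000049093, chr6:67422932-67491855) and Sox5 (ENSMUSG00000041540, chr6:143828425-144781977) both lie on the minus strand of chromosome 6, and Zbtb16 (ENSMUSG00000066687, chr9:48654297-48836222) lies on the minus strand of chromosome 9. The constant region genes Tcrg-C1 (ENSMUSG00000076749, chr13:19214103-19217024) and Trdc (ENSMUSG00000104876, chr14:54142851-54148868) lie on plus strands. Sox5 spans 953.553 kb, Zbtb16 181.926 kb and Il23r 68.924 kb, against 3.592 kb for Il17a, and whether intronic reads entered the counts is not given in the sources used here. Levels are therefore compared for a gene between groups of cells and not between genes.

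Counting at the 3′ end does not read regulatory sequence, and the 250 bases before the RefSeq start of Il17a, Il17f and Il23r are shown because these 3 genes were found in the same cells. They were searched on both strands for AGGTCA, a core that nuclear receptors such as the product of Rora are known to bind, and matches stand in capitals (TGACCT is the same core read on the other strand). The sequences are from RefSeq (GRCm38.p6), 5′ to 3′ on the strand of the gene, at chr1:20730655-20730904 for Il17a, chr1:20784271-20784520 for Il17f, where the RefSeq start lies inside a longer GENCODE gene model, and chr6:67491856-67492105 for Il23r.
Il17a: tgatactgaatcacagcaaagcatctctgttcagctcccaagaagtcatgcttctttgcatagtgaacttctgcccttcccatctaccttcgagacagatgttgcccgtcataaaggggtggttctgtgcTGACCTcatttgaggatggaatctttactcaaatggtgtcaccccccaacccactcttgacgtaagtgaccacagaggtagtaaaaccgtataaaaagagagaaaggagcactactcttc
Il17f: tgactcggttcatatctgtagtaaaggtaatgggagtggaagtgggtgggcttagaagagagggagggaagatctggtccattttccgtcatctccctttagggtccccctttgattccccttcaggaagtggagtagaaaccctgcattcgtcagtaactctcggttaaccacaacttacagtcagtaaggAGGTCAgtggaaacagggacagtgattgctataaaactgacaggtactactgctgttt
Il23r: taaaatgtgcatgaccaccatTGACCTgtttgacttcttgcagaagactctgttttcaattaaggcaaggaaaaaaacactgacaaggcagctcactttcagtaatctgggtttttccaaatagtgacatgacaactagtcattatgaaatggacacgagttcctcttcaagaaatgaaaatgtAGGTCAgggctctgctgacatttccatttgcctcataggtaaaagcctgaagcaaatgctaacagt
Il17a held 1 match, ending 115 bases before the start. Il17f held 1, ending 53 bases before the start, and Il23r held 2, ending 224 and 61 bases before it. The corresponding window of Sox5 (chr6:143947107-143947356), which also lies inside a longer GENCODE gene model, held 0. Of 32851 windows of this length 4607 (14.0%) held the core. The match is one of letters only and says nothing about binding. Of the 7 genes, 4 had an entry among the RefSeq promoters.

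Cells were placed in groups by their UMIs. Cells with fewer than 200 genes or over 10% of UMIs from mitochondrial genes were dropped, which left 16325. T cells were those in which Cd3d, Cd3e, Cd3g and Trac gave 2 or more UMIs in sum while the B cell genes Cd79a and Ms4a1 gave none, and 2451 cells qualified. These were 305 with a Trdc UMI (Trdc T cells), and, without Trdc, 590 with CD8 genes (CD8 T cells), 279 with Cd4 (Cd4 T cells), 24 with both, and 1253 with neither (other T cells). NK cells were 4599 cells outside the T cell gate with 2 or more UMIs of Ncr1 and Klre1 and none of the Cd3 genes. Another 195 cells met both gates, through Trac alone, and were kept as T cells. B cells (2570) and myeloid cells (560) served as groups in which most of the 7 genes should be absent. The median depth was 10009 UMIs in Trdc T cells, 10609 in CD8 T cells, 9015 in Cd4 T cells, 7478 in other T cells, 5774 in NK cells, 9828.5 in B cells and 11150 in myeloid cells. Levels are UMIs per 1000000 UMIs of the group (CPM) with exact Poisson 95% intervals, shares of cells carry exact Clopper-Pearson 95% intervals, and ratios carry exact conditional binomial 95% intervals. With 1 pool there was no replicate and no test, and all intervals cover counting error only.

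The groups did not match the lineage names closely. Among Trdc T cells, 53.8% had 2 or more UMIs of the NK cell genes Ncr1 and Klre1, against 12.2% of CD8, 9.68% of Cd4 and 22.3% of other T cells. The summed level of 5 NK cell markers was 448 CPM in Trdc T cells, 215 CPM in all T cells and 1062 CPM in NK cells. Of the Trdc T cells, 30.5% had no UMI of Cd3d, Cd3e or Cd3g, and 127 had exactly 1 Trdc UMI. Trac, the alpha chain constant region, was seen in 255 of the 305. Trac is a gene of the T cell gate, and cells without a Cd3 UMI entered on it alone. This count is therefore partly set by the gate. Scrublet marked 23.6% of Trdc T cells as doublets, against 10.3% of the T cells without Trdc. The share with Trdc did not step up at the gate's threshold: 22.6% of the 1046 cells with 1 UMI of the T cell genes had a Trdc UMI, against 21.1% of the 418 cells with 2 and 9.20% of the 250 cells with 4. The part that NK cells, doublets and free RNA take in each value below was not tested.

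Il17a was high in a few T cells and in a few cells that met no gate, and low in CD8 T, NK, B and myeloid cells. The pool held 1897 Il17a UMIs in 45 cells, and the 5 richest cells held 74.3% of them. T cells held 1045 of the UMIs in 28 cells, and the cells outside every gate held 849 (44.8%) in 14 cells, at 20.1 CPM. Cd4 T cells had the highest level, 195 CPM (180 to 211; 619 UMIs in 5 cells), which was 59.5 CPM without the richest cell and 2.12 CPM without the cells of hashtag 10. Trdc T cells had 31.0 CPM (25.7 to 37.0; 121 UMIs in 5 cells) and other T cells 25.5 CPM (22.7 to 28.6; 294 UMIs in 15 cells), and the intervals of these neighbours overlapped. Without their richest cell they had 12.3 and 8.95 CPM, and without the cells of hashtag 10 they had 38.3 and 11.5 CPM, both above Cd4 T cells. CD8 T cells had 1.56 CPM (0.781 to 2.80; 11 UMIs in 3 cells). The 2 UMIs in 4599 NK cells and the 2 UMIs in 2570 B cells gave 0.0587 and 0.0670 CPM, and myeloid cells had 0 UMIs, which allows up to 0.383 CPM (3 counts). Thus a UMI of Il17a was rare in the cells that should lack it, and the T cell level rested on few cells.

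Il17f followed the same order at the top. Of 686 UMIs in 77 cells, Cd4 T cells held 343 in 8 cells, a level of 108 CPM (96.8 to 120) that was 34.8 CPM without the richest cell and 22.5 CPM without the cells of hashtag 10, where Trdc T cells had 23.4 CPM. Trdc T cells had 20.5 CPM (16.2 to 25.5; 80 UMIs in 7 cells) and other T cells 7.82 CPM (6.29 to 9.61; 90 UMIs in 10 cells), intervals that did not overlap. The richest cell held 56 of the 80 UMIs of Trdc T cells and 44 of the 90 of other T cells, and without these cells the levels were 6.16 and 3.997 CPM. Myeloid cells had 2.81 CPM (22 UMIs in 3 cells), of which 1 cell held 16 UMIs. CD8 T cells (0.569 CPM), B cells (0.469 CPM) and NK cells (0.235 CPM) overlapped each other.

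Il23r was level across 3 of the T cell groups. It reached 16.4 CPM (12.2 to 21.5; 52 UMIs in 8 cells) in Cd4 T cells, 16.2 CPM (14.0 to 18.7; 187 UMIs in 26 cells) in other T cells and 16.1 CPM (12.4 to 20.6; 63 UMIs in 6 cells) in Trdc T cells, with overlapping intervals. In CD8 T cells it stood at 0.284 CPM (2 UMIs), in NK cells at 0.529 CPM (18 UMIs in 8 cells), in B cells at 0.469 CPM and in myeloid cells at 0.765 CPM, again overlapping. Between the upper and the lower set of groups the intervals did not meet.

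Trdc, which defined the Trdc T cells and is given as a description, was not confined to T cells. Of its 3782 UMIs, NK cells held 1805 (47.7%) in 1052 cells, 22.9% of NK cells (21.7% to 24.1%), at 53.0 CPM (50.6 to 55.5). Trdc T cells held 1060 UMIs at 271 CPM, with up to 27 UMIs in a cell. B cells had 2.78 CPM with a UMI in 2.53% of cells. The 2372 B cells that did not meet the NK gate had 0.875 CPM with a UMI in 0.843% of cells at a median depth of 9424 UMIs. The 4271 NK cells free of B cell genes had 57.5 CPM in 22.7% of cells at a median depth of 5571, so the share in NK cells was above that of the background group at a lower depth. NK cells with Trdc also carried little of the IL-17 genes: 0 UMIs of Il17a and Il23r and 1 UMI of Il17f in 1052 cells.

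Tcrg-C1, a gamma chain constant region, was close to undetected. It gave 12 UMIs in 11 cells of the whole pool, of which Trdc T cells held 5 UMIs in 5 cells, a level of 1.28 CPM (0.416 to 2.99). Cd4 T cells held 2 UMIs, other T cells 1 and CD8 T cells 0. NK cells held 0, which allows up to 0.0881 CPM (3 counts). Tcrg-C1, Tcrg-C2 and Tcrg-C3 are near-identical copies and reads between them may be lost or split, so these counts are uncertain. Among the other gamma constant genes, Tcrg-C2 gave 20 UMIs in 14 Trdc T cells and 0 in NK cells, and Tcrg-C4 gave 13 UMIs in 12 cells of each group. Trdv4, a delta variable gene, had 497 UMIs in 403 NK cells and 25 UMIs in 18 Trdc T cells, a level of 14.6 and 6.40 CPM. Trdv5 had 11 UMIs in 8 Trdc T cells and 2 UMIs in 2 NK cells.

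Zbtb16 was highest in NK cells and other T cells. NK cells had 34.7 CPM (32.7 to 36.7) with a UMI in 12.3% of cells, and other T cells 30.0 CPM (26.9 to 33.3) in 7.10%, and these intervals overlapped. Cd4 T cells (19.5 CPM, 15.0 to 25.0) and Trdc T cells (17.2 CPM, 13.3 to 21.8) followed and overlapped each other. CD8 T cells had 7.54 CPM (5.65 to 9.86). B cells had 3.55 CPM, or 1.41 CPM in those that did not meet the NK gate, and myeloid cells 2.55 CPM. A UMI was seen in 0.675% of the B cells that did not meet the NK gate and in 11.1% of Trdc T cells, at median depths of 9424 and 10009.

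Sox5 had its highest level in B cells. There it stood at 205 CPM (200 to 210) with a UMI in 32.1% of cells, followed by NK cells at 105 CPM (101 to 108; 21.3%), Trdc T cells at 69.7 CPM (61.6 to 78.5; 26.6%) and other T cells at 51.5 CPM (47.4 to 55.8; 10.5%). Myeloid cells had 27.7 CPM, and Cd4 T cells (12.8 to 22.2 CPM) and CD8 T cells (13.2 to 19.3 CPM) had overlapping intervals. The level in B cells that did not meet the NK gate was 210 CPM and that in NK cells free of B cell genes 97.1 CPM, a ratio of 2.17 (2.07 to 2.27). With each cell thinned to 1000 UMIs the share of cells with a Sox5 UMI was 11.9% in B cells, 7.21% in NK cells and 6.89% in Trdc T cells. Sox5 overlaps the antisense genes Sox5os3 and Sox5os4, whose counting against it rests on the strand setting, and Sox5 was no marker of T cells in this pool.

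**Figure D1:**
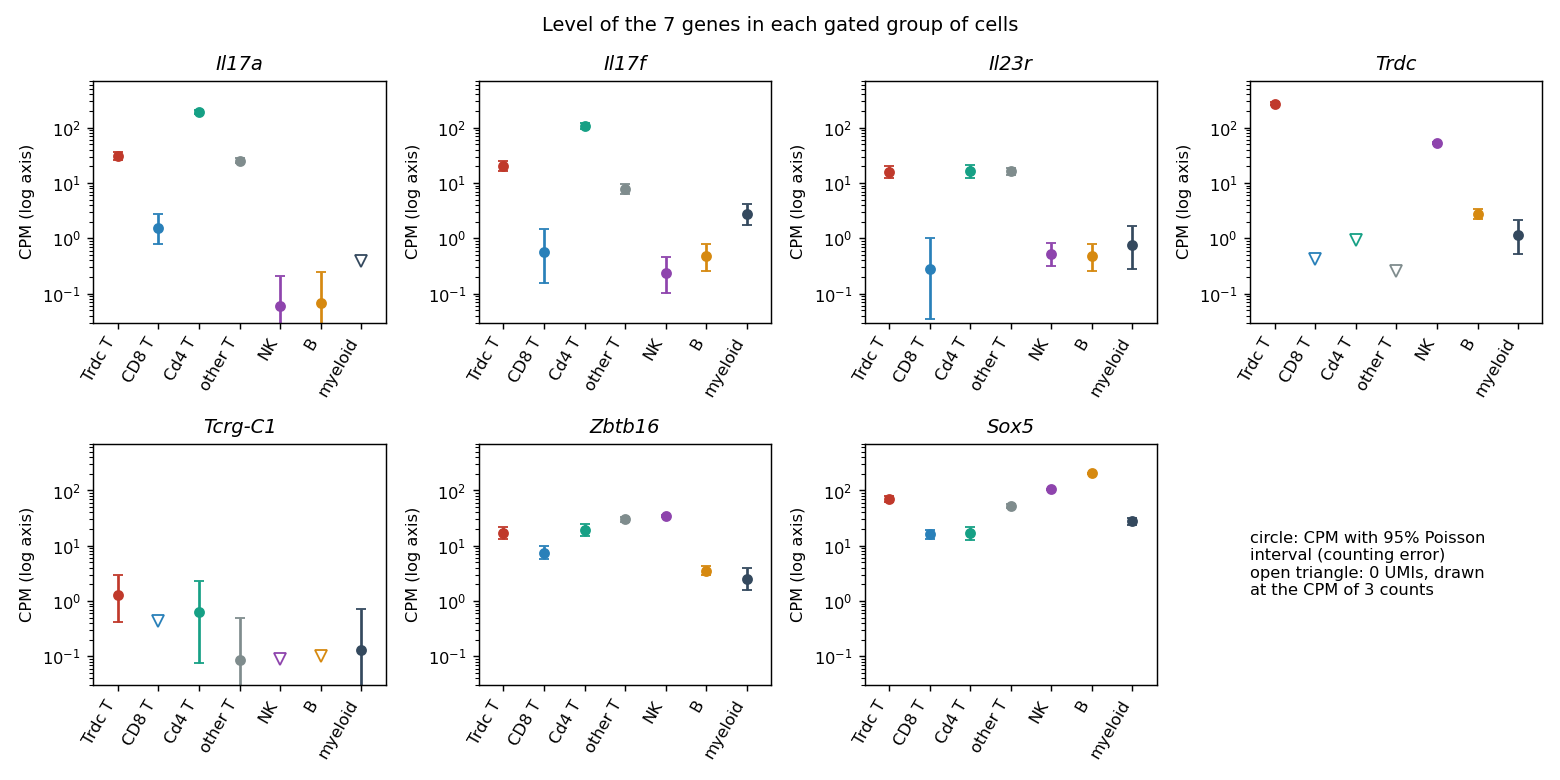
Level of the 7 genes in 7 groups of cells, in CPM on a log axis; circles are summed UMIs with exact Poisson 95% intervals and open triangles are groups at 0 UMIs drawn at the level of 3 counts. Il17a, Il17f and Il23r sit high in Trdc, Cd4 and other T cells, Trdc and Zbtb16 are also high in NK cells, and Sox5 is highest in B cells (205 CPM).

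Trdc T cells were compared with the 2146 T cells without Trdc, which asks whether cells with a delta chain transcript held more of the other genes. Sox5 was 2.03-fold higher (1.76 to 2.33) and Il23r 1.49-fold higher (1.11 to 1.98). Il17f differed by a ratio of 1.05 (0.813 to 1.33), Zbtb16 by 0.826 (0.630 to 1.07) and Il17a by 0.748 (0.613 to 0.905). The direction for Il17a turned in 4 other treatments of the same cells, among them the T cells with fewer than 2 NK marker UMIs (1.50) and the T cells without those of hashtag 10 (5.67). The ratio for Il23r was 1.02 with a gate of 2 or more Trdc UMIs and 3.46 in the T cells with fewer than 2 NK marker UMIs, and that for Il17f ran from 0.315 to 3.09 over the treatments. Tcrg-C1 had a ratio of 9.52 (1.85 to 61.3) on 5 and 3 UMIs.

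Within the Trdc T cells the UMIs of the IL-17 genes lay almost wholly in cells low in NK markers, and in few of those. The 141 Trdc T cells with fewer than 2 Ncr1 and Klre1 UMIs had 78.7 CPM of Il17a (120 UMIs in 4 cells), and the 164 with 2 or more had 0.420 CPM (1 UMI). Of the 120 UMIs 1 cell held 73 and another 39, each with 1 Trdc UMI. By cells, 6 of the 141 and 2 of the 164 held 2 or more Il17a and Il17f UMIs. Il17f was 49.9 against 1.68 CPM, a ratio of 29.7 (11.1 to 112), and 1 cell held 56 of the 76 UMIs behind the higher level. Il23r was 41.3 CPM (63 UMIs in 6 cells) against 0 UMIs, at least 32.8-fold higher against a level of 3 counts. Zbtb16 was 17.7 against 16.8 CPM (ratio 1.05, 0.622 to 1.76) and Sox5 77.4 against 64.7 CPM (ratio 1.20, 0.933 to 1.53). The cells low in NK markers also held more Trdc, 432 against 168 CPM. Myeloid markers moved with the same division, with a summed level over 6 genes of 7979 against 221 CPM. For S100a8, a neutrophil gene, the level was 3652 against 17.6 CPM, but 5542 of the 5567 UMIs in the cells low in NK markers lay in 3 cells. The 6 cells low in NK markers that held 2 or more Il17a and Il17f UMIs had 0 S100a8 and 2 S100a9 UMIs in sum.

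Other T cells were divided in the same way. Their Il17a was 35.2 CPM (293 UMIs) in the 974 cells with fewer than 2 NK marker UMIs. In the 279 with 2 or more it was 0.313 CPM (1 UMI). Of the 293 UMIs 1 cell held 191, so this contrast rested largely on 1 cell. Their Il23r was 22.5 CPM (187 UMIs in 26 cells) against 0 UMIs. Zbtb16 was 28.2 against 34.5 CPM (ratio 0.819, 0.650 to 1.04), whereas Sox5 was lower in the cells low in NK markers (ratio 0.609, 0.515 to 0.722). In CD8 T cells Zbtb16 was 0.854 CPM (5 UMIs in 4 of 518 cells) against 40.7 CPM (48 UMIs in 11 of 72 cells). Cd4 T cells went the other way for Il23r, with 7.42 CPM in 252 cells low in NK markers and 66.4 CPM in 27 cells high in them, on 32 UMIs in 2 cells, and 618 of their 619 Il17a UMIs lay in cells low in NK markers. Their Il17f was not confined to cells low in NK markers. Of its 343 UMIs, single cells high in NK markers held 40, 26 and 2.

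**Figure D2:**
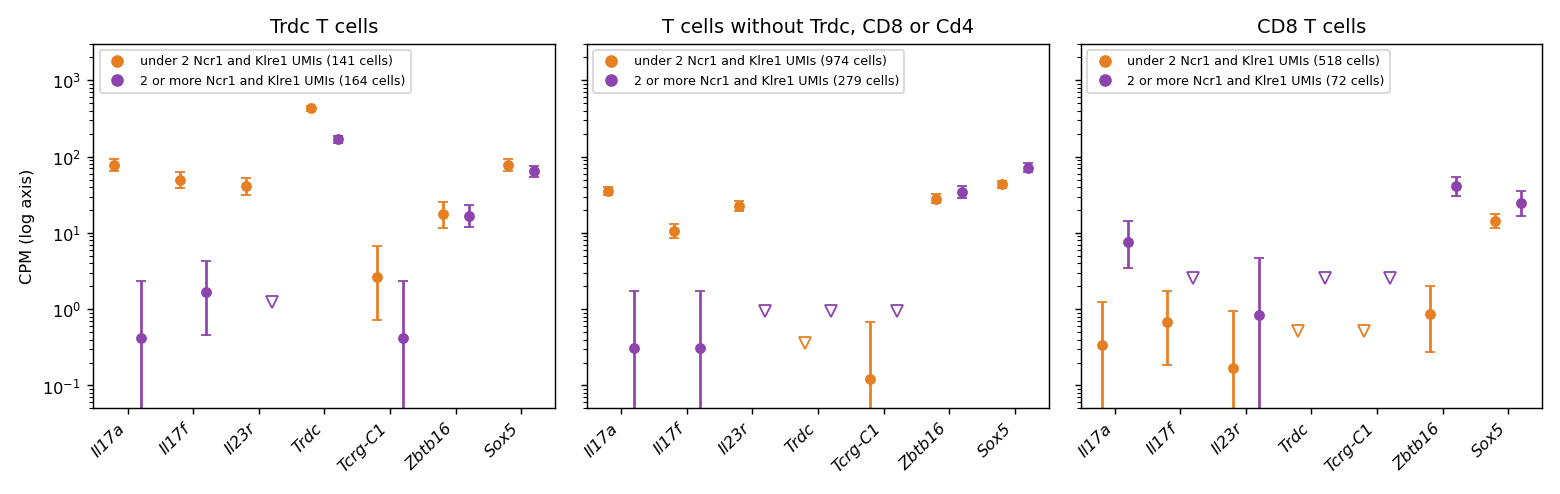
Level of the 7 genes in CPM (log axis, exact Poisson 95% intervals) in Trdc T cells, T cells without Trdc, CD8 or Cd4, and CD8 T cells, each divided by UMIs of the NK cell genes Ncr1 and Klre1; open triangles are 0 UMIs drawn at 3 counts. In Trdc and other T cells Il17a, Il17f and Il23r are higher in the cells with fewer than 2 NK marker UMIs (orange), and Zbtb16 is level between the orange and purple points.

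Cells with 2 or more UMIs of Il17a and Il17f together were then taken one by one. There were 48 such cells with 2 to 664 UMIs, a median of 9.5. Of these, 15 held both transcripts, 14 Il17a only and 19 Il17f only. In the T gate lay 32: 8 Trdc, 9 Cd4, 2 CD8 and 13 other T cells. None was an NK cell, 1 was a B cell, 2 were myeloid and 13 met no gate. Another 17 T cells lay just below the threshold with exactly 1 UMI.

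The richest cell was a Cd4 T cell with 431 Il17a and 233 Il17f UMIs, 3.32% of its 20005 UMIs. It also held 34 UMIs of Il22, a cytokine of type 17 cells, and 0 of Il23r. The next richest met no gate, since it had 1 Trac UMI and none of the Cd3 genes, and held 529 Il17a, 41 Il17f, 24 Il23r and 5 Zbtb16 UMIs in 11120. The richest Trdc T cell had 73 Il17a, 56 Il17f and 22 Il23r UMIs with 1 Trdc UMI and 11 Trbc1 UMIs, so its delta chain call rested on 1 molecule.

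The genes held beside the cytokines are given for the 3 main T cell groups among the 32. Of the 8 Trdc T cells, 7 had Il17f, 4 Il17a, 5 Il23r and 5 Il1r1 (a receptor for IL-1). Maf was seen in 4 of these 8, Il22 in 1, Zbtb16 in 3 and Trac in 5. Of the 9 Cd4 T cells, 7 had Il17f, 4 Il17a, 4 Il23r and 2 Il1r1. Maf was seen in 6 of these 9, Il22 in 2, Zbtb16 in 0 and Trac in 9. Of the 13 other T cells, 7 had Il17f, 8 Il17a, 9 Il23r and 3 Il1r1. Maf was seen in 3 of these 13, Il22 in 0, Zbtb16 in 5 and Trac in 12. With 8, 9 and 13 cells these shares have wide counting error, and a gene without a UMI in a cell may still be expressed there. Sox5 was seen in 4 and Tcrg-C1 in 1 of the 32.

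**Figure D3:**
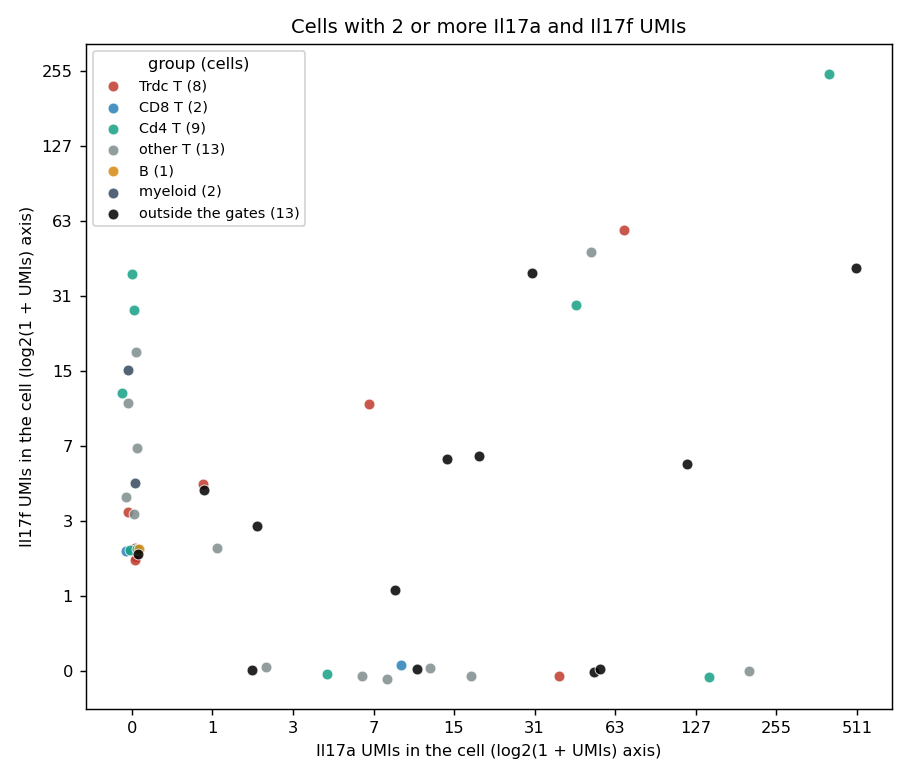
Il17a UMIs against Il17f UMIs, both on log2(1 + UMIs) axes, in each of the 48 cells with 2 or more UMIs of the pair, coloured by group; points at 0 are spread slightly so that they can be told apart. Cells with many UMIs of both genes occur among Cd4, Trdc and other T cells and outside the gates, and the 14 cells with Il17a only and 19 with Il17f only lie along the axes.

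Il17a, Il17f and Il23r shared cells more than their separate frequencies give. Among the 2451 T cells, 28 had Il17a, 28 Il17f and 42 Il23r. Il17a and Il17f met in 7 cells where the product of the margins gives 0.320, Il17a and Il23r in 15 (0.480) and Il17f and Il23r in 14 (0.480). Thus 53.6% of the Il17a cells had an Il23r UMI. Zbtb16, in 154 T cells, met Il17a in 10 (1.76) and Il23r in 13 (2.64), but Il17f in 3 (1.76). Trdc met Il17a in 5 (3.48), Il17f in 7 (3.48), Il23r in 6 (5.23) and Sox5 in 81 (35.1). Of the 8 T cells with Tcrg-C1, 5 had Trdc. These counts describe cells of 1 library that share free RNA and differ in depth, and no p was computed.

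The correlation of log expression over 7050 T and NK cells ranked the genes most like each member. Nearest to Il17a were Il17f (r = 0.50), Il23r (0.44) and 5830411N06Rik (0.40), a scavenger receptor-family gene seen in 12 of these cells. Nearest to Il23r were Olfr60 (0.47), an olfactory receptor gene, Il17f (0.46) and Il1r1 (0.46). For Trdc the values were lower, with Gm43434 (0.23), the chemokine gene Xcl1 (0.22) and Crtam (0.18), and for Zbtb16 lower still, with Il18rap (0.16), Klrb1b (0.15) and Dock2 (0.15). Sox5 was most like its own antisense genes Sox5os4 (0.41) and Sox5os3 (0.19). Tcrg-C1, with a UMI in 8 of the cells, was too sparse to rank. The points share a library and depth, and in counts this sparse a weak correlation is no finding.

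Genes were next compared across T cells, first between the 32 T cells with 2 or more Il17a and Il17f UMIs and the 2402 with none. Of the 32, Scrublet marked 1. Over all genes, 8.01% of 10973 genes were 2-fold or more higher and 7.69% 2-fold or more lower. Of 16 measured genes of a type 17 program, a list of genes known from IL-17-producing cells, 10 were 2-fold or more higher and 0 lower, with a median log2 ratio of 1.93 against 0.09 over all genes. Il1r1 was 40.4-fold higher (27.7 to 58.5; 50 UMIs in 10 cells), Rora, a nuclear receptor gene, 3.76-fold (3.24 to 4.34; 200 UMIs in 21 cells), and Ccr6, a chemokine receptor of type 17 cells, 7.77-fold (3.74 to 14.6; 11 UMIs in 7 cells). Tmem176a was 8.73-fold and Serpinb1a 4.67-fold higher, or 3.32-fold and 2.25-fold without the richest cell of each gene. For the lists and over all genes that treatment removed a cell from the 32 and none from the 2402, which lowers the ratios. With it 7 of the 16 were higher and 1 lower, and 225 genes were higher and 1535 lower over all genes. Il22 had too few cells for the comparison, with 129 UMIs in 3 of the 32 cells against 0 in the 2402.

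Among the members, Il23r was 148-fold higher in the IL-17 cells (113 to 197; 181 UMIs in 19 cells against 75 in 18) and Zbtb16 2.70-fold higher (1.66 to 4.18; 21 UMIs in 8 cells). Trdc (ratio 1.31, 0.816 to 1.99) and Sox5 (ratio 0.914, 0.510 to 1.52) had intervals that included equal levels, and their ratios were 0.849 and 0.2499 without the richest cell. The program of PLZF-dependent innate-like T cells was mixed, with 4 of 22 genes higher (Il4, Icos, Sh2d1a and Rora, which the type 17 list also holds), 3 lower (Ifng, Klrb1b and Klrb1c) and a median log2 ratio of -0.33. Without the richest cell of each gene among the 32, 2 were higher, Rora and Icos, and 10 lower. Calls over all genes also moved toward lower in that treatment, so the 10 are not read as a result about the list. For Il4, 86 of the 91 UMIs lay in 1 cell, and its ratio was 0.458 without it. Klrb1c rested on 3 UMIs, with a ratio of 0.485 (0.0996 to 1.43). Ifng, the type 1 cytokine, had a ratio of 0.156 (0.128 to 0.188), and 0.0941 without its richest cell. Il2, a T cell growth factor, had a ratio of 6.01 (5.69 to 6.35; 12 of 32 cells), but 1 cell held 1213 of its 1416 UMIs and the ratio was 0.900 without it. Of 11 other T cell cytokine genes 6 were higher and 2 lower. Without the richest cell of each gene Il5 and Il13 were higher and Il4, Ifng and Il10 lower. Il13 was seen in only 4 of the 32 cells. Of 5 NK cell markers 4 were 2-fold or more lower, among them Klrb1c on its 3 UMIs, and 0 higher. Ncr1 was not called. By cells, Ncr1 was seen in 6 of the 32 and Klre1 in 6. The lower levels therefore do not show that fewer IL-17 cells carried NK markers. Klre1, for instance, had a ratio of 0.372 (0.178 to 0.686). Of 7 cytotoxic genes 2 were lower, Gzma with a ratio of 0.415 and Fasl with 0.296, and 0 higher. Of 9 factors of gamma-delta lineage development 1 was lower, Lef1 with a ratio of 0.473, and 0 higher. Of 5 measured markers of innate lymphoid cells 3 were higher, Kit, Il1rl1 and Il13. In Kit 1 cell held 6 of the 9 UMIs, in Il1rl1 14 of 26 and in Il13 498 of 685, and the ratios without these cells were 0.908, 1.72 and 5.33. Of 6 myeloid markers 3 were lower.

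The 10 genes with the highest ratio in IL-17 cells were Il23r, Palld, Il1r1, Arg1, Jcad, Pxdc1, Cysltr1, Il13, Cnnm2 and Lgals7. Cysltr1, a receptor for cysteinyl leukotrienes, was 23.3-fold higher (16.9 to 31.7; 58 UMIs in 11 cells), Pxdc1 30.2-fold (18.3 to 48.6; 27 UMIs in 8 cells) and Jcad 30.7-fold (16.1 to 56.5; 17 UMIs in 7 cells). All 55 Palld UMIs lay in 1 cell, and so did 26 of the 36 Arg1, 14 of the 17 Lgals7, 28 of the 44 Cnnm2 and 498 of the 685 Il13 UMIs.

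The 154 T cells with a Zbtb16 UMI were compared with the 2297 without, at median depths of 10215 and 8736 UMIs. Of 11002 genes, 3.75% were 2-fold or more higher and 4.71% lower. Of 22 genes of the PLZF innate-like program 8 were higher and 2 lower, with a median log2 ratio of 0.65 against 0.08 over all genes. The higher ones included the NK receptor genes Klrb1c (3.58-fold, 2.80 to 4.55) and Klrb1b (3.31-fold, 2.65 to 4.10), Il18r1, a receptor for IL-18 (2.81-fold, 2.47 to 3.18), and Il4 (4.31-fold, 3.67 to 5.05; 18 of 154 cells against 31 of 2297). Slamf6 and Slamf1, receptors of the SLAM family, were lower, with ratios of 0.360 and 0.408. Without the richest Zbtb16 T cell of each gene 6 of the 22 were higher and 3 lower. Over all genes that treatment gave 172 higher and 937 lower. At a fold of 4, 1 of the 22 was higher and 0 lower, against 22 and 152 over all genes. Of 11 genes of IL-23 and IL-1 family receptor signalling 5 were higher, among them Il12rb1, the partner chain of Il23r (4.75-fold, 2.94 to 7.46), and 2 lower.

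NK cell markers moved with Zbtb16: 4 of 5 were 2-fold or more higher, Ncr1 by 2.30-fold, as were 3 of 7 cytotoxic genes. Klrb1c is counted in both the NK cell markers and the PLZF program. In T cells with fewer than 2 Ncr1 and Klre1 UMIs, where 7% of 10281 genes were higher and 5.51% lower, 6 of the 22 PLZF program genes were higher (Il18r1, Klrb1c, Klrb1b, Klra1, Il4 and Id2) and Slamf1 and Slamf6 were lower. Il17a was 4.22-fold higher in Zbtb16 T cells (3.66 to 4.84; 277 UMIs in 10 cells), Il23r 7.84-fold (6.18 to 9.91; 122 UMIs in 13 cells), and Il17f had a ratio of 0.349 (0.194 to 0.582; 15 UMIs in 3 cells). For Il17a 1 cell held 191 of the 277 UMIs, and the ratio was 1.31 without it and 2.99 without the richest cell of both groups. For Il17f 1 cell without Zbtb16 held 233 of 502 UMIs, and the ratio was 0.652 without it and 0.218 without the richest cell of both groups. The Il17f ratio thus stood on 15 UMIs in 3 cells, and those 3 cells with both genes compare with 1.76 from the margins. On so few cells no difference in Il17f between Zbtb16 T cells and the rest is claimed. Sox5 had a ratio of 1.90 (1.58 to 2.27). Klra5 (8.22-fold), Cysltr1 (8.11-fold) and Trpm6 (7.76-fold) were among the 10 genes with the highest ratio, which also held Hmga2, Il23r, Cd209a, Pxdc1, Il1r1, Dnah12 and Gm36723. Of the 31 Hmga2 UMIs 28 lay in 1 cell, as did 20 of the 26 Cd209a UMIs.

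In the comparison of Trdc T cells with T cells without Trdc, 2.68% of 11002 genes were 2-fold or more higher and 4.04% lower. No gene of the 16 of the type 17 program was 2-fold or more higher and 4 were lower, including Maf (ratio 0.462, 0.359 to 0.587) and Ccr6 (0.372, 0.133 to 0.842). In other treatments 1 gene was higher, Il1r1 with the mean over cells and in T cells with fewer than 2 NK marker UMIs, and Ltb4r1 without the cells marked by Scrublet. NK cell markers (4 of 5 higher, Ncr1 by 2.75-fold) and cytotoxic genes (4 of 7, Prf1 by 2.77-fold, Gzma by 2.61-fold) were higher. Prf1 was 657 CPM in the 164 Trdc T cells high in NK markers and 180 CPM in the 141 low in them. All T cells without Trdc had 170 CPM of Prf1. Gzma was 2344, 820 and 670 CPM in the same order. Of 22 PLZF program genes 6 were higher, including Klrb1c (2.81-fold) and Fcer1g (2.48-fold), and 2 lower, Slamf1 and Slamf6. Klrb1c is also 1 of the NK cell markers. In T cells with fewer than 2 Ncr1 and Klre1 UMIs, 5 of the 22 were higher and 4 lower (Icos, Slamf1, Slamf6 and Il4). There 4.04% of 10281 genes were higher and 5.46% lower. Bcl11b, a T cell lineage factor, had a ratio of 0.471, and Traj18, the joining segment of invariant NKT cell receptors, of 0.285 on 7 UMIs. Of 9 gamma-delta lineage factors Sox5 was the only 1 higher and Bcl11b the only 1 lower. Without the richest Trdc T cell of each gene 0 were higher, and Bcl11b was still lower. The myeloid genes S100a8 and S100a9 had ratios of 2.89 and 2.67, and 3 cells held most UMIs of each gene (5542 of 5609 for S100a8 and 6269 of 6357 for S100a9). The 164 Trdc T cells high in NK markers had 17.6 CPM of S100a8 against 497 CPM in T cells without Trdc, and a UMI was seen in 18.0% of all Trdc T cells and 15.7% of the T cells without Trdc.

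**Figure D4:**
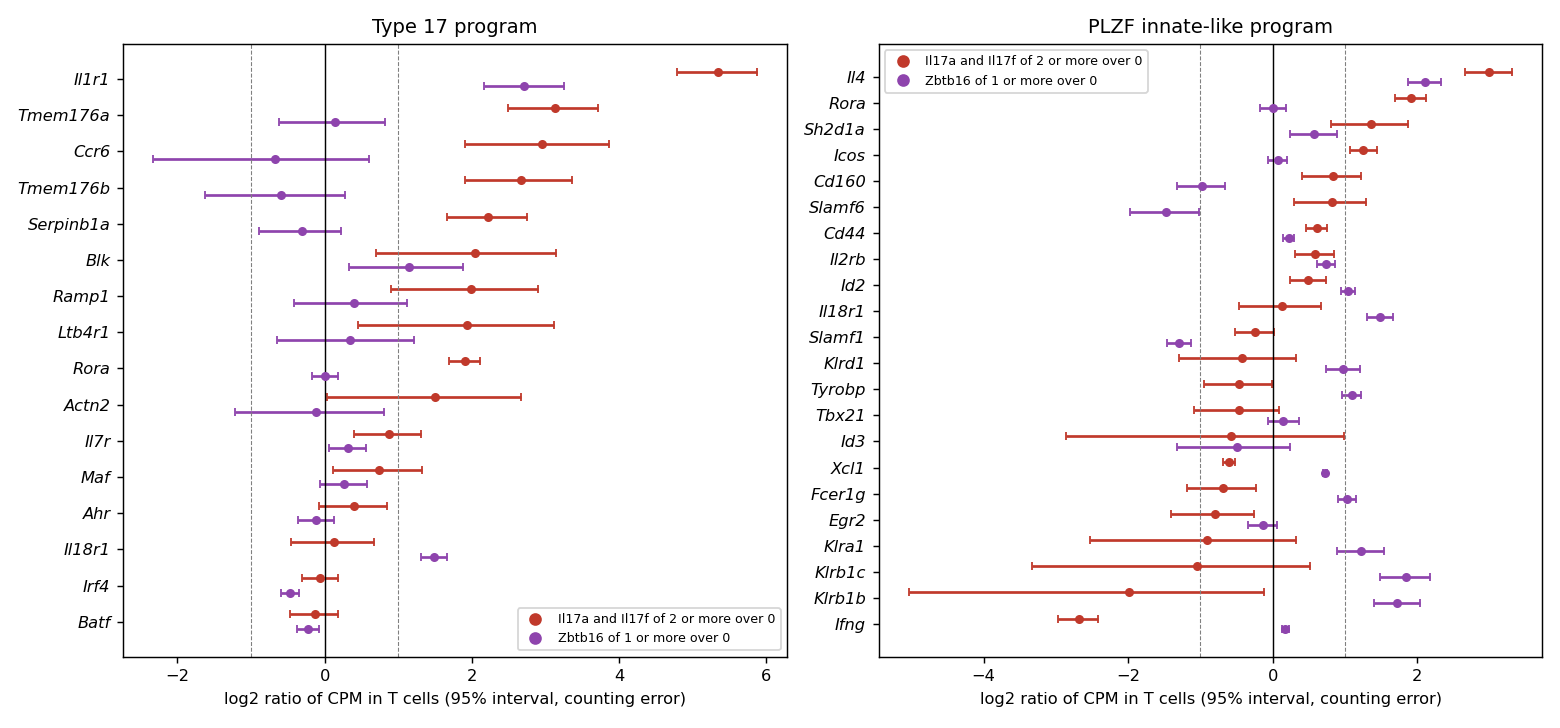
Log2 ratio of CPM, with 95% intervals of counting error, for the measured genes of the type 17 program (left) and the PLZF innate-like program (right), in T cells with 2 or more Il17a and Il17f UMIs over none (red) and with 1 or more Zbtb16 UMIs over none (purple); dashed lines mark a 2-fold difference. In the type 17 program 10 of 16 red points lie beyond the right dashed line, and in the PLZF program 8 of 22 purple points do.

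Hashtags 9, 10, 11 and 12 were called in T cells, of which 1783 (72.7%) carried exactly 1. They are unpaired with the 3 conditions and are given side by side. Il17a in T cells was 26.3 CPM for hashtag 9 (330 cells), 132 for hashtag 10 (619 cells), 1.81 for hashtag 11 (432 cells) and 19.6 for hashtag 12 (402 cells). Without its richest cell, hashtag 10 had 61.8 CPM and hashtag 12 had 0.525 CPM. Il17f was 16.2, 51.2, 4.07 and 21.5 CPM in the same order, and Il23r was 21.4, 8.12, 3.17 and 23.6 CPM. Cells with Il17a numbered 9, 8, 1 and 3. Zbtb16 was 27.2, 20.3, 19.7 and 18.6 CPM, Trdc 50.7, 40.8, 37.1 and 31.4 CPM, and Sox5 35.9, 35.9, 28.5 and 31.4 CPM. The IL-17 genes thus varied more between hashtags than Zbtb16, Trdc and Sox5 did, on few cells.

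**Figure D5:**
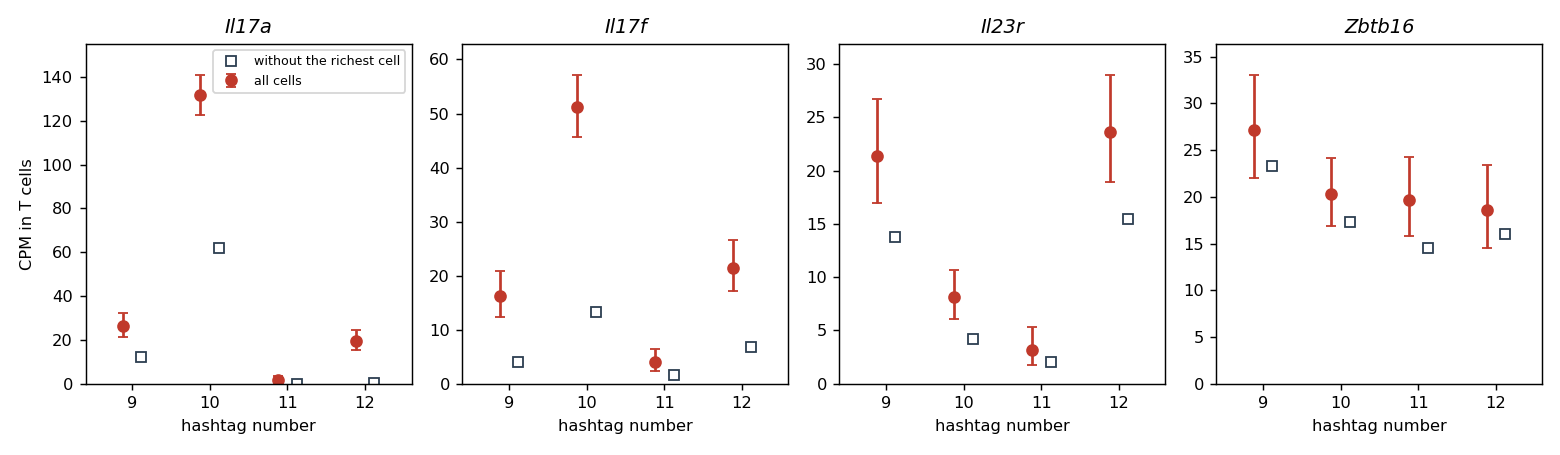
Level of Il17a, Il17f, Il23r and Zbtb16 in T cells of each hashtag, in CPM with exact Poisson 95% intervals (circles) and without the cell that holds most UMIs of the gene (open squares). For Il17a hashtag 10 stands highest at 132 CPM and drops to 61.8 CPM without 1 cell, whereas Zbtb16 keeps to 18.6 to 27.2 CPM.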

How the data were processed

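One pool of spleen cells was measured as a gene-expression library and a hashtag library on the 10x Genomics 3′ platform. The authors aligned reads to GRCm38/mm10 with Cell Ranger (7.2.0 in the submitters' processing notes, 7.0.0 in the matrix header) and deposited UMI counts per gene and barcode, used here as deposited. Cells were kept and grouped by UMI thresholds as stated in the report, hashtags were called per gate with HTODemux (Seurat 5.3.0, positive quantile 0.85), and Scrublet (scanpy 1.11.5, expected rate 0.1) marked 1336 of 16325 cells as doublets, which stayed in. Cells in both the T and NK gates (195) were kept as T cells, and 198 cells in both the NK and B gates were counted in both. Genes were compared by CPM of summed UMIs, with a 2-fold limit and no test. A gene needed at least 50 UMIs in at least 10 cells over both groups, so a gene could pass through the group where it was high. Named genes were the 7 genes, the genes of the lists, the 3 most correlated genes and the 10 highest ratios. Depth limits precision: intervals and the floor of 3 counts cover counting error only. Scripts were tested on simulated counts that held counting error only. Of 50 genes raised 4-fold, 50 (Trdc), 49 (IL-17 cells) and 50 (Zbtb16) were called. Unchanged genes were also called past 2-fold: 95 (Trdc) and 907 (IL-17 cells) with 11018 genes run, and 280 (Zbtb16) with 11021. Counting error alone thus gave many 2-fold calls in the IL-17 comparison. The genes, lists and groups were chosen with earlier results of these data known. Some genes of the lists are not reported here. Alternatives covered filters, gates, thinning, hashtags and the richest cell.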

Additional observations from a re-analysis of the deposited data

Results flagged for a closer look

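Outside every gate, 6356 cells (38.9% of those kept) held Il17a and Il23r at levels above those of B and myeloid cells, which should lack them. They held 849 of the 1897 Il17a UMIs in 14 cells (20.1 CPM, against 0.0670 CPM in B cells and 0 UMIs in myeloid cells) and 210 Il23r UMIs in 32 cells (4.96 CPM, 4.31 to 5.68, against 0.469 and 0.765 CPM). Their 127 Il17f UMIs in 27 cells gave 3.00 CPM (2.50 to 3.57), above the 0.469 CPM of B cells but overlapping the 2.81 CPM of myeloid cells (1.76 to 4.25). The richest cell held 529 of the Il17a UMIs, and the level was 7.56 CPM without it. Of the 13 such cells with 2 or more Il17a and Il17f UMIs, all lacked Cd3d, Cd3e and Cd3g UMIs. That lack is partly set by the T cell gate, which takes cells with 2 or more Cd3 and Trac UMIs and no B cell genes. Of the 13, 9 had a UMI of Trac, Trbc1 or Trbc2 and 2 had a UMI of Cd79a or Ms4a1. Il23r was seen in 8, Il1r1 in 7, Rora in 9, Il22 in 4, Zbtb16 in 4 and Trdc in 0. Scrublet marked 2 of them. Their cell type was not assigned.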

How the results depend on the processing

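No paired analysis was possible because both samples are libraries of 1 pool and the results come from no test. The values below are ratios of CPM in Trdc T cells over T cells without Trdc, and each changed with the stated choice; the cause was not tested. Il17a (0.748) reversed with the mean over cells (1.28), thinning to 1000 UMIs (1.48), without hashtag 10 (5.67) and with fewer than 2 NK marker UMIs (1.50), and was 0.956 without Scrublet-marked cells, 0.0874 with 2 or more Trdc UMIs, 0.281 without hashtag 12 and 0.556 without the richest cell. Il17f (1.05) was 0.405 with 2 or more Trdc UMIs, 2.23 as the mean over cells, 2.52 thinned, 1.51 in cells with 1 hashtag, 3.09 without hashtag 10, 0.315 without hashtag 12, 0.672 without the richest cell and 2.36 with fewer than 2 NK marker UMIs. Il23r (1.49) was 2.13 without Scrublet-marked cells, 1.02 with 2 or more Trdc UMIs, 2.38 as the mean, 3.31 thinned and 3.46 with fewer than 2 NK marker UMIs. Zbtb16 (0.826) was 1.09 thinned. Sox5 (2.03) was 1.74, 2.57, 2.54 and 2.82 with 2 or more Trdc UMIs, as the mean, thinned and with fewer than 2 NK marker UMIs.

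Counts of genes 2-fold or more higher and lower moved by over 1.5 times as follows. At a fold of 4 they were 28 and 83 (Trdc, from 295 and 445), 126 and 139 (IL-17 cells, from 879 and 844) and 22 and 152 (Zbtb16, from 413 and 518). With 20 UMIs in 5 cells they were 529 and 798 (Trdc), 1366 higher (IL-17 cells) and 732 and 800 (Zbtb16). Without the richest cell of each gene they were 170 and 781, 225 and 1535, and 172 and 937. The mean over cells gave 1372 lower (IL-17 cells) and fewer than 2 NK marker UMIs gave 720 higher (Zbtb16). In IL-17 cells over those without, removing the richest cell of each gene, in the first group or in both groups, reversed Il4 (8.00 to 0.458 and 0.541), Il2 (6.01 to 0.900 and 0.941) and Kit (2.67 to 0.908 and 0.944), a treatment chosen after seeing the data. Of 833 levels under alternatives 652 stayed within their counting error and 181 moved. Of 95 ratios of Trdc T cells over T cells without Trdc 69 stayed, 22 moved and 4 reversed. Of 112 ratios of named genes without the richest cell 66 stayed, 40 moved and 6 reversed. Of 114 counts of genes 71 stayed and 43 moved by over 1.5 times, and of 63 co-detection counts 23 stayed and 40 moved.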

Other observations

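Sox5 in B cells was looked at after its level was seen. Over the 2372 B cells that did not meet the NK gate, the genes most like it by correlation of log expression were Cdk14 (r = 0.52), a cyclin-dependent kinase gene, its antisense gene Sox5os4 (0.49) and S100a6 (0.41), a calcium-binding protein gene. The cells share a library and depth, and the values are a description.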
